A study of Mus musculus with 24 samples.

Results

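Liver RNA of PXR-knockout (PXRKO) mice given atorvastatin was set against liver RNA of wild-type (WT) mice given the same drug, 4 libraries for each genotype and 8 of the 24 in the series. The members were taken by their labelled genotype and treatment, with no use of measured values. WT males were C57BL/6N, 19 to 20 weeks old. PXRKO males were 20 weeks old, C57BL/6N by the sample labels and C57BL/6 by the design text; the sources used here do not describe the knockout allele. Both groups ate standard chow, received 10 mg/kg atorvastatin by oral gavage for 4 days and were killed after an overnight fast of 12 h. Each group was drawn from up to 10 treated mice, and each library is 1 animal. The 2 genotypes were dosed in 2 different experiments, and in every value below genotype cannot be told apart from experiment. WT vehicle and PXRKO vehicle libraries (distilled water, otherwise handled as their treated groups, 4 each) are used for reference levels. The hour at which animals were killed is not given.

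PXR, the product of Nr1i2, is a nuclear receptor of hepatocytes that binds steroids, bile acids and drugs, pairs with RXR and induces cytochrome P450 enzymes, conjugating enzymes and transporters. Its relative CAR, the product of Nr1i3, shares many of these targets. Atorvastatin is a statin, a drug that blocks cholesterol synthesis at an early step. When sterol in the endoplasmic reticulum is low, SCAP carries the transcription factor SREBP2 to the Golgi for cleavage, and genes of sterol synthesis and uptake are induced; INSIG proteins hold SCAP back when sterol is ample. Atorvastatin is also known as an activator of human PXR.

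The authors' deposited table lists 1374 genes that they called different between the genotypes at an adjusted p under 0.05 (DESeq2), of an implied 14690 tested, a background of 9.35%. In PXRKO liver 625 genes were higher (4.25%) and 749 lower (5.1%). Among the 1374 the 4 libraries of one genotype did not overlap the 4 of the other in 1176 (85.6%), which the selection of the table favours. The median size was 1.45-fold, 295 genes differed at least 2-fold and 53 at least 4-fold. The 1374 listed genes, and no others, were refitted with edgeR's quasi-likelihood test, with Benjamini-Hochberg adjustment over 14690. Of the 1374, 951 passed (6.47% of the 14690), 446 higher and 505 lower. They had been selected on the same counts, so the refit is not an independent test. With TMM scaling on the listed genes the split was 595 higher and 306 lower, and with total counts of the listed genes 601 and 267. Both scalings, here and below, were computed from called genes alone and are not normalisations over all genes tested. They moved the median log2 difference of the listed genes by 0.09 and 0.11 toward PXRKO, and no listed gene changed direction. Levels below are normalised read counts, that is, counts divided by DESeq2 size factors and set on 1 scale across tables; 4 values are the 4 libraries of a group, in column order. A gene is said to be higher, lower, raised or reduced where the authors called it, and the edgeR value follows. Uncalled genes have no value in the table of these 8 libraries, so lists are described by counts of called members, with no list median. Called shares of lists can be too high against the 9.35%, because some members were counted as measured only through being called.

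**Figure D1:**
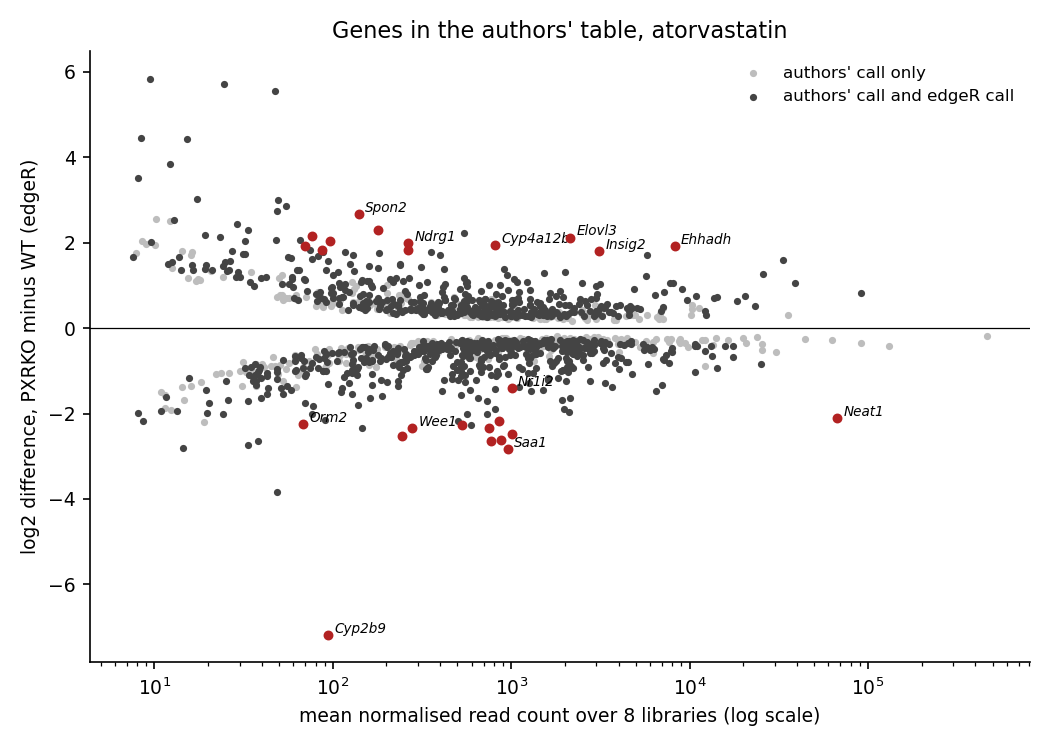
Each point is 1 of the 1374 genes in the authors' deposited table; the x axis is the mean normalised read count of the 8 atorvastatin libraries (log scale) and the y axis the edgeR log2 difference, PXRKO minus WT. Red points are Nr1i2 and the 12 largest rises and 12 largest falls taken by rule, some of them labelled; Cyp2b9 stands lowest at -7.17 and Spon2 highest of the red points at 2.66.

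The targeted gene was checked first. Nr1i2 (chromosome 16, 38248323 to 38294824, GRCm38) had levels of 1351, 1451, 1617 and 1399.8 in WT and 631, 609, 386 and 591 in PXRKO liver. All PXRKO libraries were below all WT libraries, and a signal of over 380 remained in each. The level was 2.62-fold lower in PXRKO (log2 difference -1.40 ± 0.14 SE, edgeR adjusted p 0.000319). The counts cover the whole gene, so which exons gave the remaining reads is not known here. Nr1i3, which encodes CAR, stood at 10382, 8498, 11166 and 10084 in WT and 3804, 5249, 4485 and 2463 in PXRKO. It was 2.51-fold lower with no overlap (log2 difference -1.33 ± 0.19 SE, edgeR adjusted p 0.00179). Among 13 receptors and partners of this group 4 were called (30.8%, against 9.35% overall), with the targeted gene Nr1i2 itself counted among the 4. Arnt, the dimer partner of the aryl hydrocarbon receptor, was also lower (-0.34 log2) and Rxrg, an RXR isoform, higher (0.69 log2); edgeR no longer called Arnt without any of 6 of the 8 libraries or Rxrg without any of 7 (adjusted p up to 0.0986 and 0.136), and Arnt was not called with TMM (adjusted p 0.17) or total-count scaling (adjusted p 0.253). The other 9, Ahr, Hnf4a and Rxra among them, were not called.

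Genes of cholesterol synthesis and uptake were lower in PXRKO liver almost throughout. Of 31 measured members of the list, 26 were lower, 1 was higher and 4 were not called. The 27 called are 87.1% of the list, against 9.35% of all genes tested. The genotypes did not overlap in 26 of the 27, against 85.6% of all called genes. By edgeR 23 were lower and 1 higher, and 21 or more stayed lower when any 1 library was left out. Sqle, squalene epoxidase, had 901, 1535, 1833 and 872 in WT and 271, 506, 404 and 202 in PXRKO liver. The lowest WT library was above the highest PXRKO library. The gene was 3.71-fold lower in PXRKO (log2 difference -1.90 ± 0.29 SE, edgeR adjusted p 0.00309). In WT vehicle livers it stood at 295 to 397, and every WT atorvastatin library lay above that range. Mvd, mevalonate diphosphate decarboxylase, had 132, 246, 345 and 134 in WT and 42.2, 94.9, 72.1 and 36.0 in PXRKO, 3.50-fold lower with no overlap (log2 difference -1.81 ± 0.36 SE, edgeR adjusted p 0.0111), and stood at 48.7 to 77.6 in WT vehicle livers.

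Other steps of the pathway were lower as well. Idi1, isopentenyl diphosphate isomerase, had 666, 1099, 1139.5 and 692 in WT, 197, 344, 209 and 149 in PXRKO and 249, 270.1, 234 and 261 in WT vehicle liver. It was 4.00-fold lower in PXRKO than in WT with atorvastatin (log2 difference -2.01 ± 0.25 SE, edgeR adjusted p 0.00088). Msmo1, the sterol methyl oxidase, had 1993, 3692, 5296 and 2384 in WT and 429, 1159.8, 1077 and 778 in PXRKO, 3.88-fold lower (log2 difference -1.95 ± 0.33 SE, edgeR adjusted p 0.00496). Neither gene's genotypes overlapped under atorvastatin. Further enzymes called lower came from the whole route: Hmgcs1 (-1.38 log2), Mvk (-1.26) and Pmvk (-1.34) of the mevalonate steps, Fdft1 (-1.29) and Lss (-1.43) from farnesyl diphosphate to lanosterol, and Cyp51 (-1.68), Nsdhl (-1.63), Sc5d (-0.79) and Dhcr7 (-1.09) beyond it. Acat2 (-1.01), Stard4 (-0.98) and Lbr (-0.53) were lower too. The smallest differences were those of Srebf2, the gene of SREBP2 itself (-0.49), Hsd17b7 (-0.52), Tm7sf2 (-0.38) and Ebp (-0.27). EdgeR did not call Hsd17b7, Tm7sf2 or Ebp, and it lost Srebf2 with total-count scaling (adjusted p 0.0677) and without any of 4 libraries (up to 0.072). Fdps, Ggps1, Mylip and Scap were measured and not called.

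Aacs, acetoacetyl-CoA synthetase, which feeds ketone bodies into lipid synthesis, had 1346, 2907, 1330.0 and 1295 in WT and 189, 569, 318 and 168 in PXRKO. WT library 2 stood apart from the other WT libraries, and all were above the PXRKO libraries; the fall was 5.52-fold (log2 difference -2.48 ± 0.37 SE, edgeR adjusted p 0.00256).

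The 2 INSIG genes moved in opposite directions. Insig1, itself an SREBP target, was 2.42-fold lower in PXRKO (3994, 4664, 6592 and 3683 in WT, 1248, 2508, 2064 and 1989 in PXRKO; log2 difference -1.28 ± 0.21 SE, edgeR adjusted p 0.00449). Insig2 was the 1 list member that was higher, at 1240.5, 1416, 1161 and 1719 in WT and 7621, 4217, 4688 and 2789 in PXRKO, 3.49-fold (log2 difference 1.80 ± 0.25 SE, edgeR adjusted p 0.00159). In WT vehicle livers Insig2 stood at 3287 to 5789.6. Its 4 WT atorvastatin libraries were below every WT vehicle and every PXRKO atorvastatin library.

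**Figure D2:**
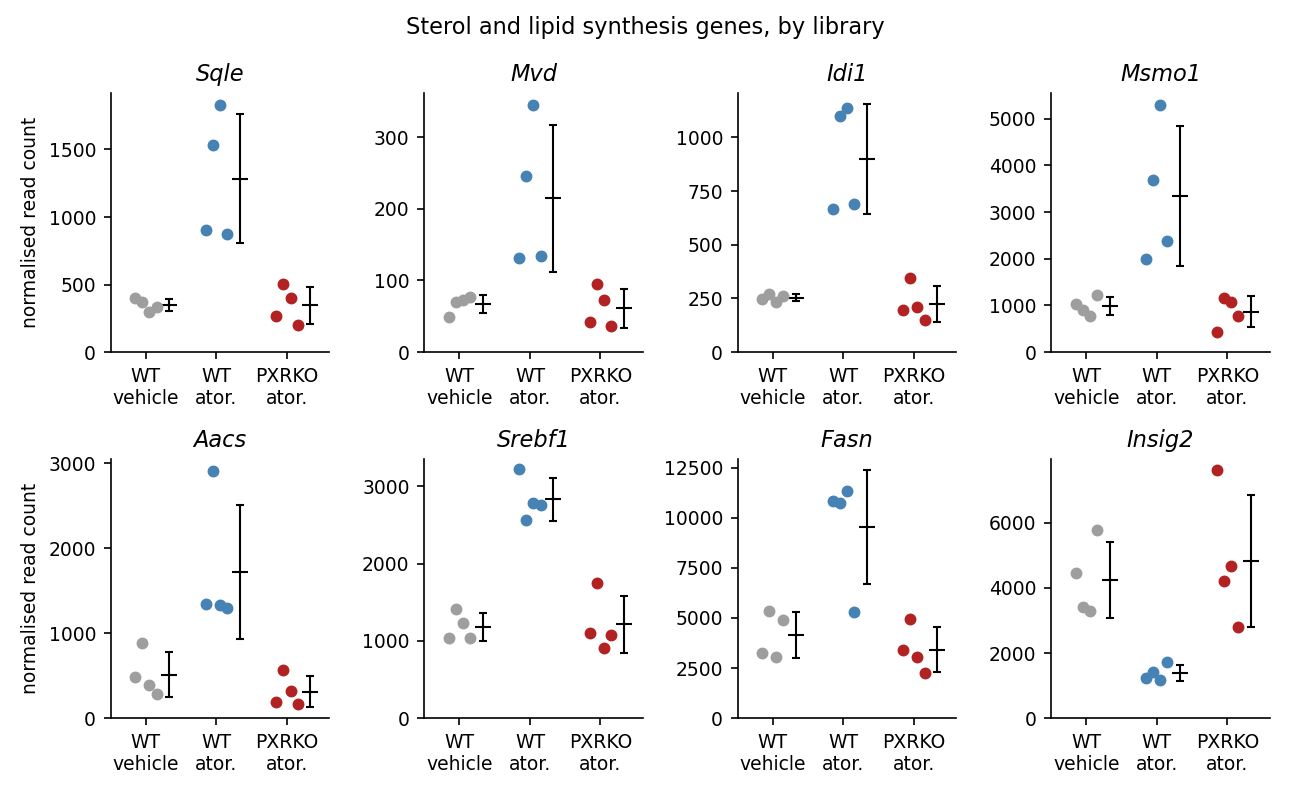
Normalised read counts (y axis, linear from 0) of 8 genes in 4 WT vehicle, 4 WT atorvastatin and 4 PXRKO atorvastatin libraries; each point is 1 library and black bars give the mean and SD (n = 4). In Sqle, Mvd, Idi1, Msmo1, Aacs, Srebf1 and Fasn the WT atorvastatin libraries lie above the PXRKO atorvastatin libraries, and in Insig2 below them.

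SREBP2 is known to act at promoters together with NF-Y, which binds CCAAT, and SREBP2 itself binds TCACCCCAC-like elements, so the promoter windows of these genes are shown. The windows hold 250 bases before and 50 after a transcript start (RefSeq, GRCm38.p6, 5′ to 3′ on the strand of the gene). They were searched on both strands for CCAAT and for TCACCCCAC; capitals mark every match, and no matches overlapped. Of the 26 sterol genes that were lower, 19 have a window, and 17 of them hold CCAAT against 41.1% of all genes in the collection. TCACCCCAC was present in 1 of the 19, Hmgcs1, against 0.614% of all genes. CCAAT was not particular to the sterol genes. Of the 14 called clock genes described below 11 have a window, and 8 of these hold CCAAT. The 4 examples are an early enzyme of the mevalonate steps, 2 later enzymes and the feedback regulator.
Hmgcs1 (chr13:119690101-119690400, plus strand): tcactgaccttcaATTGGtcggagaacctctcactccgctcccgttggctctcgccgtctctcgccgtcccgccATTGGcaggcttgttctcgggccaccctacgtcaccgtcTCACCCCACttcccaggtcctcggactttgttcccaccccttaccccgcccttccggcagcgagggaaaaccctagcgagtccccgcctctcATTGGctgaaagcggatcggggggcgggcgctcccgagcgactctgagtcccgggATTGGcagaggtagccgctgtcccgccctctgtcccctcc
Idi1 (chr13:8885356-8885655, plus strand): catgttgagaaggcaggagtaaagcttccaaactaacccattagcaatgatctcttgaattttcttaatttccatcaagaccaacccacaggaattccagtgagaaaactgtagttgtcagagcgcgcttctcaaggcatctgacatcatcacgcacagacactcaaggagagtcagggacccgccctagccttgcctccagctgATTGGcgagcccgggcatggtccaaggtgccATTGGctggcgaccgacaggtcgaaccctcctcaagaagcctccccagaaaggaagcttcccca
Cyp51 (chr5:4104648-4104947, minus strand): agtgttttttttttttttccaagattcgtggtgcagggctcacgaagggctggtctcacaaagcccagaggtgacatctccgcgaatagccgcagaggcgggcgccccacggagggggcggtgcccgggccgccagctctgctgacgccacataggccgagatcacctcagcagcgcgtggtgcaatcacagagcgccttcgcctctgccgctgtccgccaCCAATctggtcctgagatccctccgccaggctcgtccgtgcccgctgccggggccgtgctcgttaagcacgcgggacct
Insig1 (chr5:28071162-28071461, plus strand): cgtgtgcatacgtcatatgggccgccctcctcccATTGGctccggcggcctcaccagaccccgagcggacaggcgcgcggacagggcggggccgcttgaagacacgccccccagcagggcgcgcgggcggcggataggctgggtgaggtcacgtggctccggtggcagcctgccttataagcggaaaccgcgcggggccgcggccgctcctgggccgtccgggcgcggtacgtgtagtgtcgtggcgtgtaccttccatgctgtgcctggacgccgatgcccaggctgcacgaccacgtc
Hmgcs1 holds 4 CCAAT matches and the 1 TCACCCCAC match, Idi1 holds 2 and Cyp51 and Insig1 1 each. These are matches of letters, not measured binding.

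Fatty acid and triglyceride synthesis was also lower in most of its called genes. Of 23 measured members 9 were lower and 3 higher (52.2% called, against 9.35% overall), 8 and 3 by edgeR. Thrsp, a lipogenic nuclear protein, had 1685, 1938, 1603 and 808 in WT and 229, 508, 212 and 61.5 in PXRKO, 5.97-fold lower (log2 difference -2.61 ± 0.44 SE, edgeR adjusted p 0.00503). Fasn, fatty acid synthase, had 10857, 10726, 11327 and 5294 in WT and 3410.3, 4965, 3049 and 2276 in PXRKO; WT library 4 was the low one of its group and remained above the highest PXRKO library. Its fall was 2.79-fold (log2 difference -1.48 ± 0.26 SE, edgeR adjusted p 0.0053). Srebf1, which encodes the SREBP that drives these genes, had 3228, 2566, 2785 and 2755 in WT and 1109, 1755, 914 and 1078 in PXRKO, 2.33-fold lower (log2 difference -1.23 ± 0.17 SE, edgeR adjusted p 0.00162), with 1035 to 1418 in WT vehicle livers. Acly (-0.90 log2), Acss2 (-0.89), Dgat2 (-0.50), Acaca (-0.58) and Lpin1 (-1.08) were lower as well; edgeR lost Acaca and Lpin1 without any of 6 libraries each (adjusted p up to 0.145 and 0.115) and under TMM (adjusted p 0.119 and adjusted p 0.0578) and total-count scaling (adjusted p 0.193 and adjusted p 0.075). The 3 that were higher are fatty acid elongases. Elovl3, which makes very long saturated chains and is male-biased in mouse liver, had 685, 1197, 604 and 718 in WT and 5546, 3724, 2655 and 1999 in PXRKO, 4.35-fold higher (log2 difference 2.12 ± 0.30 SE, edgeR adjusted p 0.00175). Elovl5 (0.91) and Elovl2 (0.74) act on polyunsaturated chains; both were also higher in PXRKO with vehicle (authors' deposited table, log2 0.54 and 0.60). EdgeR lost Elovl2 with atorvastatin without any of 4 libraries (adjusted p up to 0.0856). Scd1, Me1, Elovl6 and Mlxipl were among the 11 members not called.

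The called genes of fatty acid oxidation and omega-oxidation were mostly higher. Of 40 measured members 13 were higher and 2 lower in PXRKO (37.5% called, against 9.35% overall), 11 and 2 by edgeR. Ehhadh, the peroxisomal bifunctional enzyme and a classical PPARα target, had 3457, 3612, 2798 and 3856 in WT and 11709.9, 10474, 10849 and 19159 in PXRKO. PXRKO library 4 was the highest, and the lowest PXRKO library was still well above the highest WT library. The rise was 3.80-fold (log2 difference 1.93 ± 0.19 SE, edgeR adjusted p 0.000293). Cyp4a14, a fatty acid omega-hydroxylase, had 10641, 15799, 16409 and 18448 in WT and 34701, 25213, 43359.8 and 43048 in PXRKO, 2.39-fold higher (log2 difference 1.26 ± 0.19 SE, edgeR adjusted p 0.00272). Its relatives Cyp4a31 (2.67-fold) and Cyp4a10 (1.62-fold) were higher too. For the carnitine shuttle, Cpt1a (0.41 log2), Cpt2 (0.57) and Crat (0.86) were higher, and for the mitochondrial trifunctional protein Hadha (0.31) and Hadhb (0.41). EdgeR did not call Hadha, and it lost Cpt1a without any of 5 libraries (adjusted p up to 0.102), Cyp4a10 without any of 5 (up to 0.106) and Hadhb without any of 6 (up to 0.0843). Ppara and Acadm were measured and not called.

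The acyl-CoA thioesterases, a cluster of near-identical genes, split. Acot1, the cytosolic form, had 569, 524, 309 and 622 in WT and 1356, 1454, 1129.7 and 1335 in PXRKO, 2.60-fold higher (log2 difference 1.38 ± 0.17 SE, edgeR adjusted p 0.000988). Acot3, a peroxisomal form, had 1528, 908, 1242 and 1643 in WT and 296, 448, 86.7 and 52.2 in PXRKO, 6.03-fold lower (log2 difference -2.65 ± 0.49 SE, edgeR adjusted p 0.0073), and Acot4 was 2.34-fold lower. Reads shared between Acot paralogs could be divided differently by another counting, which holds likewise for the Cyp4a, Cyp2c, Mup, Saa and Orm genes below. Among 22 lipid droplet and uptake genes 6 were called (27.3%, against 9.35% overall). Of these 3 were higher, the droplet coat genes Plin2 (1.81-fold) and Plin5 (1.41-fold) and lipoprotein lipase, Lpl (2.17-fold), and 3 were lower, Vldlr (2.11-fold), Plin4 (1.59-fold) and Slc27a5 (1.29-fold). EdgeR called all 6, and of these Vldlr kept its call whichever 1 library was left out. It lost Plin2 without any of 6 libraries (adjusted p up to 0.116), Plin5 without any of 5 (up to 0.0779) and Lpl without any of 2 (up to 0.0512). Plin4 and Slc27a5 were lost without any of 6 and 7 libraries (up to 0.12 and 0.119), under TMM (adjusted p 0.0786 and adjusted p 0.161) and with total-count scaling (adjusted p 0.0907 and adjusted p 0.176).

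**Figure D3:**
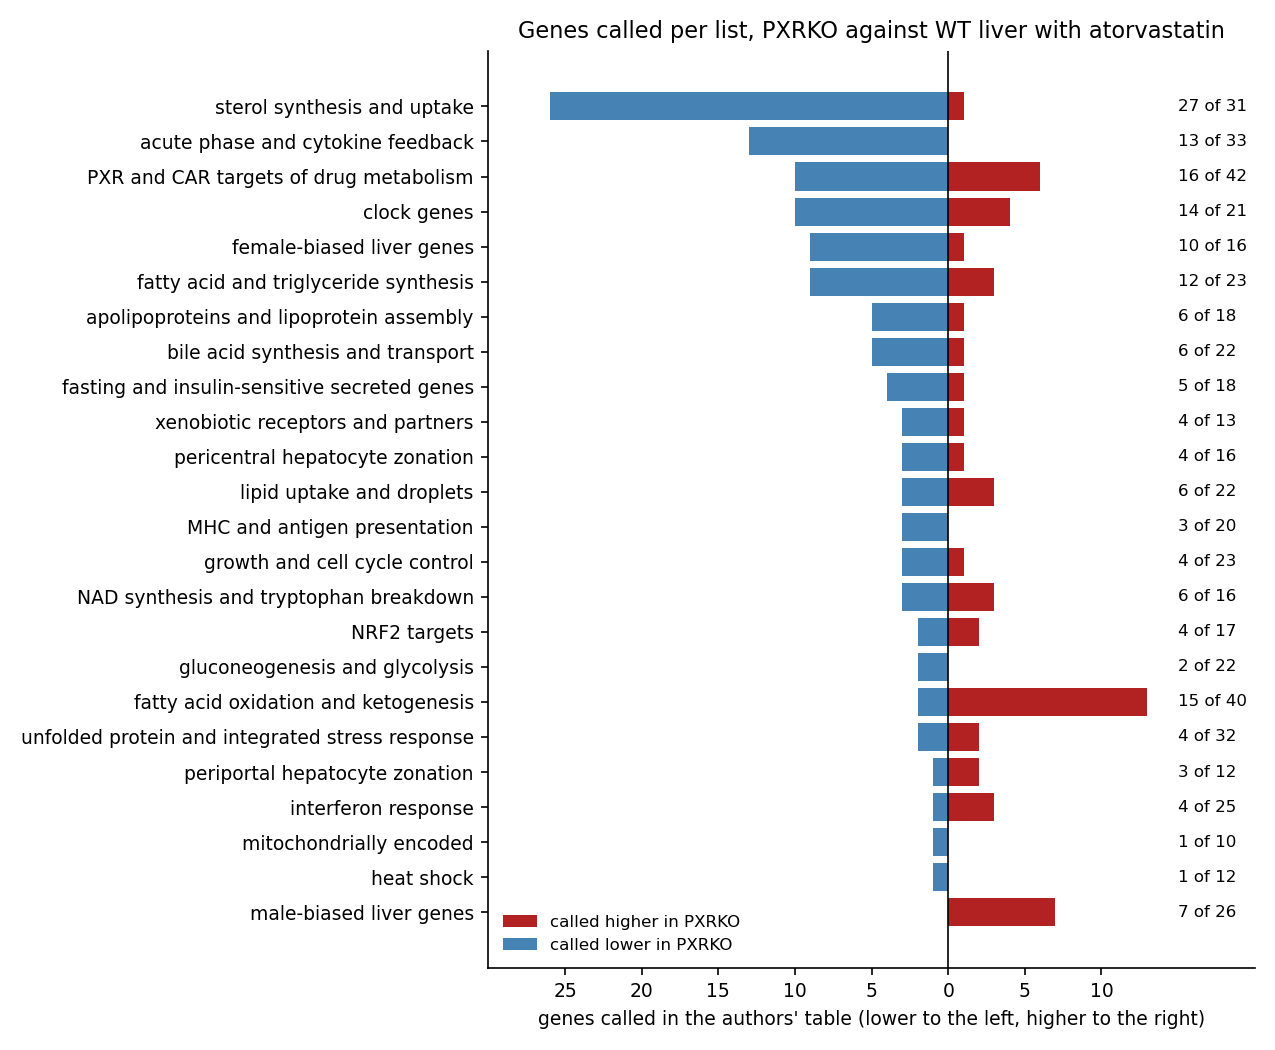
For each of 24 gene lists, bars count the members called in the authors' deposited table, higher in PXRKO to the right and lower to the left; the text at the right gives called of measured members. Sterol synthesis has 26 lower and 1 higher, fatty acid oxidation 13 higher and 2 lower.

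Core clock genes differed in both directions. Of 21 measured members 10 were lower and 4 higher in PXRKO (66.7% called, against 9.35% overall), 9 and 3 by edgeR, with 9 to 12 called when any 1 library was left out. In the mouse clock BMAL1 (gene Arntl) and CLOCK drive Per and Cry genes, whose products then repress them. Per2 had 1221, 995, 1069.6 and 1211 in WT and 227, 499, 307 and 361 in PXRKO, 3.22-fold lower (log2 difference -1.70 ± 0.18 SE, edgeR adjusted p 0.000446). Per3 had 1790.1, 1792, 2215 and 1846 in WT and 239.7, 926, 673 and 903 in PXRKO, 2.79-fold lower (log2 difference -1.48 ± 0.30 SE, edgeR adjusted p 0.0117); PXRKO library 1 was the lowest. Per1 was 1.84-fold lower and Cry1 1.97-fold. The genotypes did not overlap in any of these 4. Usp2, a deubiquitinase with strong daily cycling in liver, had 1408, 1396, 1657 and 1125 in WT and 140.3, 482, 267 and 363 in PXRKO, 4.46-fold lower (log2 difference -2.17 ± 0.27 SE, edgeR adjusted p 0.000905). Tef (-0.81 log2), Bhlhe40 (-1.23), Nr1d2 (-0.55) and Hlf (-0.42, not called by edgeR) were lower as well; edgeR lost Bhlhe40 without any of 4 libraries (adjusted p up to 0.0808).

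The 4 clock genes that were higher included Arntl and Clock. Arntl had 43.2, 39.1, 23.6 and 106 in WT and 268, 133, 205 and 113 in PXRKO, 3.39-fold higher (log2 difference 1.78 ± 0.39 SE, edgeR adjusted p 0.0191). WT library 4 lay close under the lowest PXRKO library. Clock was 1.85-fold higher, Nr1d1 1.68-fold and Bhlhe41 2.13-fold; the genotypes overlapped in Nr1d1 and Bhlhe41, and edgeR did not call Bhlhe41. EdgeR lost Arntl without any of 4 libraries (adjusted p up to 0.0626) and Nr1d1 without any of 6 (up to 0.151). Outside the list, Wee1, a cell cycle kinase gene that the clock controls in mouse liver, had 542, 445, 519 and 345 in WT and 27.2, 181, 72.1 and 96.3 in PXRKO, 4.92-fold lower (log2 difference -2.33 ± 0.35 SE, edgeR adjusted p 0.00232). In WT vehicle livers Per2 stood at 355 to 609.7, Usp2 at 191 to 665 and Wee1 at 53.6 to 170.3, in each case with every WT atorvastatin library above the highest WT vehicle library. Whether the 2 experiments ended at the same hour is not given, and its part in these differences cannot be told apart from genotype. Dbp, Npas2, Cry2, Nfil3, Ciart, Rora and Noct were not called.

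CACGTG, the E-box that BMAL1 and CLOCK bind, was found in the windows of 4 of the 11 called clock genes that have one, against 8.09% of all genes. It was also present in 4 of the 19 windows of the sterol genes that were lower. Both examples below are from clock genes that were lower, and capitals mark the E-box, searched on both strands.
Cry1 (chr10:85185005-85185304, minus strand): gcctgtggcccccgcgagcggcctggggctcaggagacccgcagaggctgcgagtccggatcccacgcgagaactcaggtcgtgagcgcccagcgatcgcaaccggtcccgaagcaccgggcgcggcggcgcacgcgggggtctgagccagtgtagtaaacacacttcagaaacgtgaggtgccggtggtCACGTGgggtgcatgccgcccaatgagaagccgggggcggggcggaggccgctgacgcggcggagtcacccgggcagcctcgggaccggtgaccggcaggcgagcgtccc
Tef (chr15:81802423-81802722, plus strand): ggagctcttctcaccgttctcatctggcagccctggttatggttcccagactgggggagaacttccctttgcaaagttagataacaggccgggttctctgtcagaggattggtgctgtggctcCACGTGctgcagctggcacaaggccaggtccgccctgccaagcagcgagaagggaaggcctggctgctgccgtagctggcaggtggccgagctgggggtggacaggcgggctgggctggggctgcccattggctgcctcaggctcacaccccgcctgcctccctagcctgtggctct

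Acute phase genes were lower wherever they were called. Of 33 measured members 13 were lower and none higher in the authors' deposited table (39.4% called, against 5.1% called lower overall); edgeR called 7, and at least 6 without any 1 library. The table holds only called genes, so a count at an unadjusted p cannot be given for the others. Saa1, a serum amyloid A that hepatocytes secrete in inflammation, had 1571, 1897, 1353 and 1920.5 in WT and 146, 113, 328 and 345 in PXRKO, 7.24-fold lower (log2 difference -2.82 ± 0.29 SE, edgeR adjusted p 0.000366). Saa2 had 308, 512, 361 and 481 in WT and 59.9, 64.3, 84.1 and 74.3 in PXRKO, 5.88-fold lower (log2 difference -2.53 ± 0.18 SE, edgeR adjusted p 0.000112). WT vehicle livers had 119 to 291 for Saa1 and 34.8 to 84.7 for Saa2, below all 4 WT atorvastatin libraries. Orm2, an orosomucoid, had 75.6, 63.2, 188 and 127 in WT and 20.4, 23.0, 36.1 and 12.8 in PXRKO, 4.92-fold lower (log2 difference -2.24 ± 0.39 SE, edgeR adjusted p 0.00533), but PXRKO vehicle livers ranged over 164, 51.0, 22.3 and 64.2. Itih4 (-0.85 log2), Il6ra (-0.84), the interleukin-6 receptor chain, and Saa4 (-0.98) were lower by both tests. Steap4 (-0.66) was too, except in edgeR with TMM (adjusted p 0.0533), with total-count scaling (adjusted p 0.0634) or without any of 5 libraries (up to 0.0882). Orm1, Orm3, Hp, Hpx, C3 and Nfkbia passed the authors' test alone. Crp, the fibrinogen genes, Lcn2, Socs3 and Hamp were among the 20 not called.

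**Figure D4:**
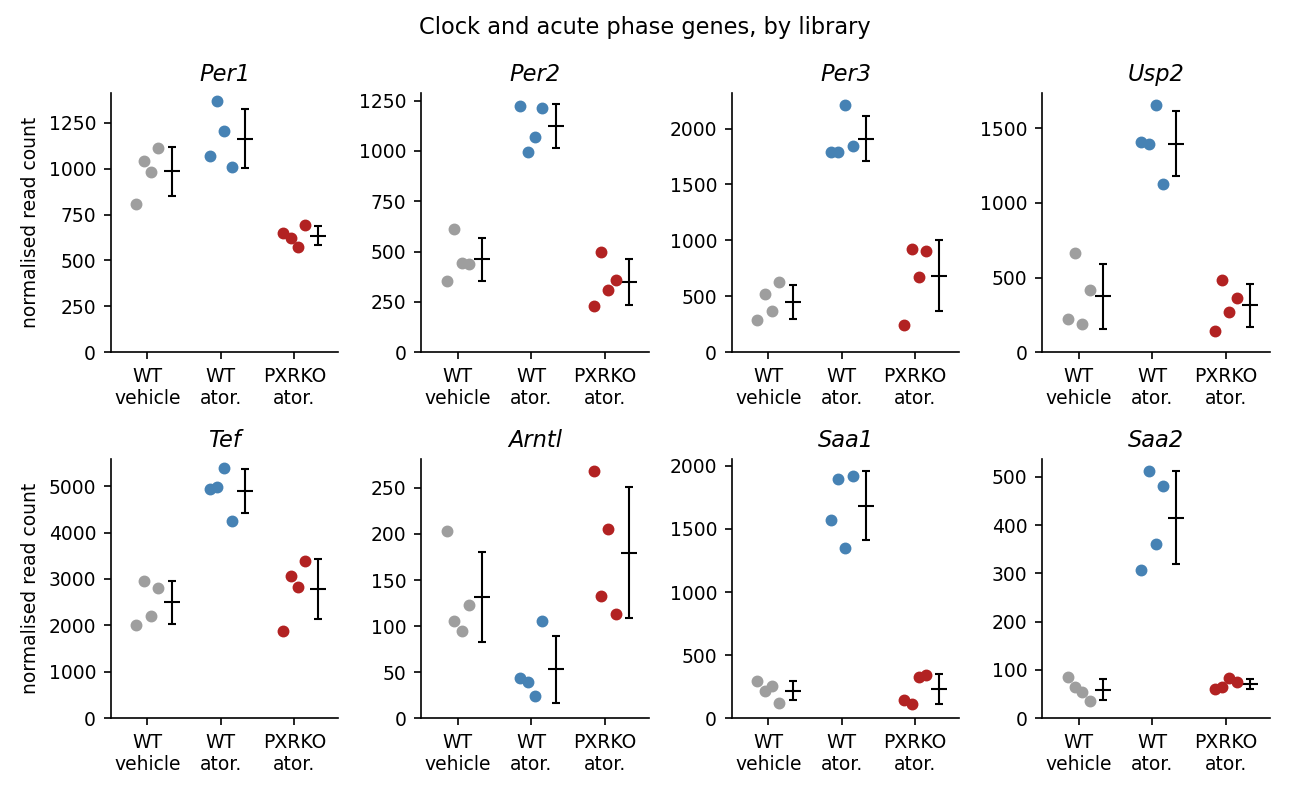
Normalised read counts (y axis, linear from 0) of 6 clock-related and 2 acute phase genes in 4 WT vehicle, 4 WT atorvastatin and 4 PXRKO atorvastatin libraries; each point is 1 library and black bars give the mean and SD (n = 4). The WT atorvastatin libraries lie above the PXRKO atorvastatin libraries in all genes shown but Arntl, where they lie below.

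Targets of PXR and CAR in drug metabolism did not move as a block. Of 42 measured members 10 were lower, 6 higher and 26 not called (38.1% called, against 9.35% overall); edgeR called 6 lower and 5 higher. Cyp3a11, Cyp2b10, Ugt1a1 and Gsta1, well-known targets in mouse liver, were measured and not called. The largest fall was that of Cyp2b9, a female-biased P450, with counts of 415, 187, 61 and 275 in WT and 4, 0, 0 and 0 in PXRKO libraries. Over the group this is 938 counts against 4. Scaled by size factors, the ratio was 164 (exact 95% interval of the counting error 63.7 to 602), and edgeR gave an adjusted p of 0.000618. In normalised read counts WT vehicle livers spanned 29.7 to 182 and WT atorvastatin livers 53.3 to 280, so these 2 groups overlapped. Abcb1a, a P-glycoprotein gene, had 63.5, 84.9, 73.4 and 91.9 in WT and 25.9, 32.1, 27.5 and 22.1 in PXRKO, 2.92-fold lower (log2 difference -1.54 ± 0.20 SE, edgeR adjusted p 0.00108). Cyp2c38 was 2.24-fold lower, Cyp2c50 1.67-fold, Cyp2c54 1.68-fold and the carboxylesterase gene Ces1g 1.87-fold; without any of 3 libraries the edgeR adjusted p of Ces1g rose to at most 0.0615. Cyp2c55, by contrast, had 55.4, 33.3, 45.4 and 16.9 in WT and 179.8, 169.8, 86.7 and 113 in PXRKO, 3.64-fold higher (log2 difference 1.82 ± 0.32 SE, edgeR adjusted p 0.00604). It was higher with vehicle as well, at 223, 102, 122 and 107 against 24.4, 24.5, 21.4 and 46.4. Cyp3a25 (0.75 log2), Gstm2 (0.69), Cyp2c29 (0.64), Ces2a (0.53) and Papss2 (0.30) were higher too. EdgeR did not call Papss2 and lost Cyp3a25, Gstm2 and Cyp2c29 without single libraries (adjusted p up to 0.0733, 0.0655 and 0.0863). With vehicle the authors called 5 members of this list higher and 2 lower in PXRKO. Cyp2c29 (authors' log2 0.67), Ces2a (0.75) and Papss2 (0.63) were among those higher.

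All animals were male, and genes with a known sex bias in mouse liver were among those called. Of 16 measured female-biased genes 9 were lower and 1 was higher in PXRKO (62.5% called, against 9.35% overall), and of 26 male-biased genes 7 were higher (26.9% called); edgeR called all of these 17. Besides Cyp2b9 and Acot3, the organic anion transporter genes Slc22a26 and Slc22a27 were lower. Slc22a26 had 34.4, 35.8, 110.1 and 184 in WT and 4.09, 10.7, 6.01 and 4.64 in PXRKO (log2 difference -3.84 ± 0.65 SE, edgeR adjusted p 0.00501), and Slc22a27 had 54.0, 24.1, 58.5 and 96.6 and 13.6, 10.7, 6.01 and 5.80 (log2 difference -2.73 ± 0.45 SE, edgeR adjusted p 0.00441). No library of either genotype overlapped in these 2 genes. Atp6v0d2 (-1.55 log2), Abcd2 (-0.90) and Fmo1 (-0.59) were also lower. Cyp17a1, a steroid hydroxylase gene, was the 1 that was higher, at 169, 223, 211 and 148 in WT and 741, 402, 435 and 881 in PXRKO (log2 difference 1.71 ± 0.24 SE, edgeR adjusted p 0.00175). Among male-biased genes Cyp4a12b had 205, 599, 240.3 and 305 in WT and 1141, 1170.5, 1177 and 1686 in PXRKO, 3.83-fold higher (log2 difference 1.94 ± 0.28 SE, edgeR adjusted p 0.00205). Mup7, a major urinary protein, had 15449, 25287, 16657 and 9470.1 in WT and 64879.6, 61048, 45499.8 and 29549 in PXRKO, 3.01-fold higher (log2 difference 1.59 ± 0.29 SE, edgeR adjusted p 0.00687). Mup11 (2.04-fold) and Cspg5 (4.56-fold) were higher with overlapping libraries, and Mup21 (2.00-fold) and C6 (1.73-fold) without overlap. Without a single library edgeR lost Mup11, Mup21, Cspg5, C6, Fmo2, Abcd2 and Atp6v0d2 (adjusted p up to 0.112, 0.0662, 0.0871, 0.087, 0.0899, 0.0665 and 0.0518).

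Smaller groups gave the following. For NAD, the salvage enzyme genes Nampt (1565, 1556, 1619 and 2012 in WT, 787, 949, 825 and 679 in PXRKO) and Nmrk1 (689, 871, 753 and 714, 305, 363, 403 and 329.6) were lower by 2.08-fold and 2.16-fold. Of 16 measured genes of NAD synthesis and tryptophan breakdown 3 were higher and 3 lower (37.5% called, against 9.35% overall); beside Nampt and Nmrk1 the third lower gene was Afmid (-0.42 log2, edgeR adjusted p 0.0857). The 3 that were higher act on tryptophan or its products: Tdo2 by 1.42-fold, Kynu by 1.56-fold and Acmsd, whose enzyme diverts the route away from NAD, by 3.36-fold. EdgeR lost Tdo2 without any of 5 libraries (adjusted p up to 0.0861). Kmo, Haao and Qprt of the same route were not called, and Ido2, outside the list, was lower (-0.41 log2, edgeR adjusted p 0.0126). In the list of the unfolded protein and integrated stress responses 4 of 32 were called (12.5%, against 9.35%), and the 2 that were higher, Atf5 (3596, 3569, 3345 and 3115 in WT, 8403, 6466, 7494 and 9538 in PXRKO; log2 difference 1.23 ± 0.11 SE, edgeR adjusted p 0.000253) and Trib3 (2.25-fold), are targets of ATF4. Atf4 itself and other integrated stress response genes of that list, among them Ddit3, Asns, Chac1 and Sesn2, were measured and not called. Hspa5 and the other chaperone genes of that list were not called apart from Herpud1 and Dnajb9, which were lower in the authors' table alone. Gluconeogenesis had 2 of 22 called (9.09%, close to the background of 9.35%): G6pc, at 4475, 4460.2, 4222 and 4333 in WT and 3022, 2826, 2698 and 3111 in PXRKO, and the glucose transporter gene Slc2a2, at 7710.2, 7856, 8550.0 and 5792 and 3943, 4954, 3771 and 3951, were lower by 1.5004-fold and 1.80-fold. Pck1 and Pdk4 were not called. In bile acid synthesis and transport 6 of 22 were called (27.3%). Of these 5 were lower, among them the 5β-reductase gene Akr1d1 (-0.74 log2) and Nr1h4 (-0.60), which encodes the bile acid receptor FXR, and 1 was higher, the 12α-hydroxylase gene Cyp8b1 (0.45, not called by edgeR). Cyp7a1 was not called. Of 25 interferon genes 4 were called (16.0%). Oasl1 (1.04), Rsad2 (1.09) and Usp18 (0.62) were higher and Gbp7 (-0.65) lower; edgeR called Oasl1 and Rsad2 alone, and lost Rsad2 without any of 4 libraries (adjusted p up to 0.0598). Of 20 MHC genes 3 were lower (15.0%), H2-Q10 (-0.42), H2-T23 (-0.42) and Tapbp (-0.31). EdgeR did not call Tapbp (adjusted p 0.0516) and lost H2-Q10 under total-count scaling (adjusted p 0.0803).

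The remaining lists had called shares of 8.33% to 33.3%, against 9.35% of all genes tested. Cdkn1a, the p21 cell cycle inhibitor, had 42.5, 24.1, 25.3 and 58.2 in WT and 275, 107, 98.7 and 144 in PXRKO, 4.16-fold higher (log2 difference 2.05 ± 0.36 SE, edgeR adjusted p 0.00598), while Ccnd1 and Jun were lower in the authors' table alone; 4 of 23 growth genes were called (17.4%), Wee1 among them. Igfbp2, a binding protein for insulin-like growth factors, had 2563, 2302, 3454 and 2482 in WT and 7692, 9107, 8463 and 10187 in PXRKO, 3.28-fold higher (log2 difference 1.71 ± 0.13 SE, edgeR adjusted p 0.000112), with 5 of 18 genes of its fasting list called (27.8%), the other 4 lower. Of 18 apolipoprotein and lipoprotein genes 5 were lower and 1 higher (33.3%), Mttp (0.33), and edgeR called the endothelial lipase gene Lipg alone (-1.45). Of 17 NRF2 targets 4 were called (23.5%). Srxn1 (0.53) and Gsr (0.30) were higher, the latter lost by edgeR without any of 4 libraries (adjusted p up to 0.0703), and Tkt (-0.44) and Ugdh (-0.31) were lower in the authors' table alone (edgeR adjusted p 0.0906 and 0.052). Of 16 pericentral genes 4 were called (25%). Oat (0.72) was higher and Lect2 (-0.59) lower by both tests. Gulo (-0.39) was lower but lost by edgeR under TMM (adjusted p 0.127), total-count scaling (adjusted p 0.249) and without any of 6 libraries (up to 0.098), and Slc1a2 (-0.32) was lower in the authors' table alone (edgeR adjusted p 0.0588). Of 12 periportal genes 3 were called (25%). Gldc (1.30) was higher by both tests, and Arg1 (0.47) was higher in the authors' table alone, with overlapping genotypes (edgeR adjusted p 0.114). Pigr (-0.42) was lower but lost by edgeR under TMM (adjusted p 0.0769), total-count scaling (adjusted p 0.077) and without any of 5 libraries (up to 0.0881). Dnajb1 (-0.56) was the 1 of 12 heat shock genes called (8.33%) and mt-Nd6 (-0.43) the 1 of 10 mitochondrial genes (10.0%), shares close to the background; both were lower, in the authors' table alone.

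Among the 24 largest differences taken by rule, several genes belong to none of the lists. Spon2, a secreted matrix protein, had 38.5, 45.8, 28.0 and 39.4 in WT and 389.5, 200.4, 203 and 175 in PXRKO, the largest rise (6.38-fold; log2 difference 2.66 ± 0.26 SE, edgeR adjusted p 0.000319), with 116 to 219 in WT vehicle livers. Neat1, the abundant nuclear RNA that forms paraspeckles, had 114437, 93381, 132815 and 96348 in WT and 34991, 12652, 32231 and 21639 in PXRKO, 4.30-fold lower (log2 difference -2.11 ± 0.27 SE, edgeR adjusted p 0.000988). It is retained in the nucleus, and library or RNA differences that touch such RNA were not tested. Fbf1, a gene of the base of cilia, had 777, 532, 552 and 1647 in WT and 136, 229.5, 94.4 and 279.7 in PXRKO, 4.74-fold lower (log2 difference -2.26 ± 0.40 SE, edgeR adjusted p 0.00612). Mrnip, a DNA repair gene, had 32.4, 26.6, 30.6 and 27.2 in WT and 119.8, 106, 88.4 and 130.0 in PXRKO, 3.80-fold higher (log2 difference 1.91 ± 0.18 SE, edgeR adjusted p 0.000253). Cntnap1, Gask1a, Ndrg1 and Lamb3 are described with the vehicle comparison.

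Part of the difference between genotypes was also present without the drug. In the authors' deposited table for vehicle, 307 of 14780 genes were called (2.08%), and it shares no library with the atorvastatin comparison. Of these, 160 were called with atorvastatin, 52.1% of the vehicle calls and 11.6% of the atorvastatin calls. EdgeR called 59 of the 160 in both conditions. The direction of the authors' calls was the same in 155 of the 160, with 86 higher and 69 lower in PXRKO. It was the opposite in 5, which are Fosl2, Tln2, Tnxb, Gm43072 and Gm45301. Both contrasts carry the same confounding with experiment, so a shared direction holds for genotype and experiment alike. Nr1i2 stood at 1212, 1280.4, 1037 and 1340.2 in WT vehicle and 640.5, 525, 569 and 617 in PXRKO vehicle, Nr1i3 at 6206, 6362, 7319 and 7772 and 3299, 4286, 3536 and 4418. Lamb3, a laminin chain, had 112, 125, 81.3 and 142 and 554, 335, 275 and 476 with atorvastatin (log2 difference 1.83 ± 0.22 SE, edgeR adjusted p 0.000872) and 182, 170.3, 213 and 173 and 409, 493, 492 and 505 with vehicle, WT first. The PXRKO libraries were above the WT libraries in both conditions. Ndrg1, a stress-response gene, had 109, 129, 91.8 and 93.8 and 667, 393, 296 and 329.6 with atorvastatin (log2 difference 1.98 ± 0.24 SE, edgeR adjusted p 0.000777) and 251, 162, 275 and 152 and 805, 423, 455 and 402 with vehicle. Gask1a had 41.9, 21.6, 26.2 and 19.7 and 138, 145, 142 and 75.4 with atorvastatin (log2 difference 2.16 ± 0.27 SE, edgeR adjusted p 0.000988) and 28.6, 45.6, 35.7 and 10.9 and 158, 161, 86.8 and 122 with vehicle. Cntnap1, a contactin-associated protein of myelinated axons, had 49.97, 63.2, 37.6 and 94.8 and 199, 129, 292 and 561 with atorvastatin (log2 difference 2.29 ± 0.41 SE, edgeR adjusted p 0.00615) and 56.1, 65.7, 35.7 and 112 and 131, 371, 217 and 289.7 with vehicle. In these 3 genes as well no PXRKO library was below a WT library of the same treatment. Igfbp2 stood at 4821, 3203, 4105 and 3435 in WT vehicle and 6064, 11635, 10718 and 11809.9 in PXRKO vehicle.

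**Figure D5:**
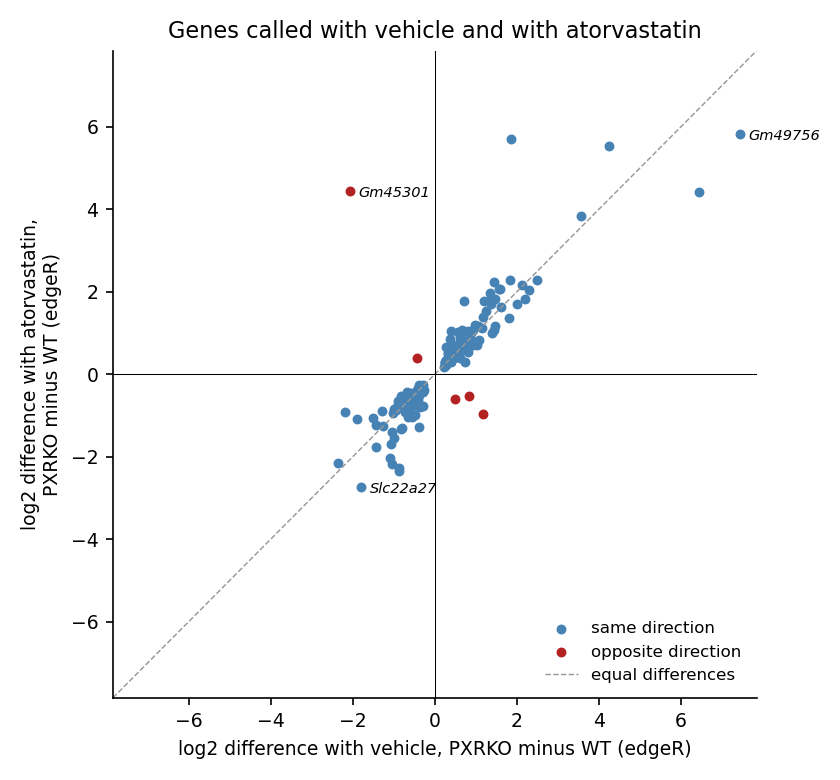
Each point is 1 of the 160 genes called by the authors with vehicle and with atorvastatin; the x axis is the log2 difference PXRKO minus WT with vehicle and the y axis with atorvastatin (both edgeR), and the dashed line marks equal differences. Blue points (155) have the same direction in both conditions and red points (5) the opposite; 3 genes are labelled.

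The other 1214 atorvastatin calls were not in the vehicle table, among them 25 of the 27 sterol genes and 13 of the 14 clock genes. A call in one condition and not in the other does not show a difference between conditions, and the interaction could be fitted for 357 genes listed in all 4 groups. Of these, 81 had an unadjusted p under 0.05 in edgeR. The 357 entered through tables selected on results of these same libraries, which can raise that count. Adjustment was over the 14690 genes inferred for the atorvastatin comparison, which is stricter than over the 357. The small number of calls therefore does not show that few genes differ, and the 81 do not show that many do. At an adjusted p under 0.05 DESeq2 called 8, and edgeR called 1 of the 357 (0.28%). The 1 gene was Tspan4, a tetraspanin, with 393, 383, 332 and 309.7 in WT vehicle, 377, 424, 474 and 358 in PXRKO vehicle, 689, 609, 657 and 919 in WT atorvastatin and 299.6, 363, 341 and 325 in PXRKO atorvastatin libraries. The difference of the log2 differences was -1.32 (95% interval -1.69 to -0.95, adjusted p 0.00979). Only 4 of the sterol genes were among the 357, and 2 are given here. The interaction was -0.90 for Insig1 (95% interval -1.45 to -0.35, adjusted p 1.00) and -0.39 for Tm7sf2 (-0.75 to -0.03, adjusted p 1.00). In the authors' deposited tables atorvastatin against vehicle called 1333 genes in WT liver and 12 in PXRKO liver; these share libraries with the present comparison and are given for context only.

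Within 10 Mb of Nr1i2 on chromosome 16, 23 of 115 measured genes were called (20%), 10 higher and 13 lower, with Nr1i2 itself among the 13. The share was 9.35% for all genes and 13.3% for the 422 measured on the chromosome, the window included. EdgeR did not call all 23, for example Hgd (adjusted p 0.12) and Sema5b (adjusted p 0.0929). Pla1a, 0.148 Mb away, had 304, 339.5, 336 and 330.2 in WT and 124, 103, 139.9 and 179.9 in PXRKO, 2.40-fold lower (log2 difference -1.25 ± 0.14 SE, edgeR adjusted p 0.000568). Gm49756, a predicted gene 7.38 Mb away, had 1 count in all WT libraries together and 62 in PXRKO. Scaled by size factors, its ratio was 88.8 (exact 95% interval of the counting error 15.4 to 3565).

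Some markers of cell types were called, against 9.35% of all genes. Of 9 measured hepatocyte markers Ttr (-0.27 log2) and Apoc3 (-0.26) were lower (22.2%), and of 14 markers of liver endothelium Ptprb (0.27) and Lyve1 (0.82) were higher (14.3%), all 4 in the authors' table alone. Of 5 lymphocyte markers 1 was higher (20.0%). The authors' table called 0 of 15 markers of Kupffer cells and macrophages, 0 of 15 of stellate cells, 0 of 4 of cholangiocytes, 0 of 2 of neutrophils and monocytes and 0 of 3 of erythroid cells; uncalled genes carry no p-value there. Their summed levels in these 8 libraries cannot be given for the same reason, and in bulk tissue fewer cells of a type and less RNA per cell cannot be told apart. With vehicle the authors called 3 endothelial and 2 stellate markers higher and the hepatocyte markers Alb and Ttr lower in PXRKO. Their part in the results above was not tested.

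Estimated depth, from size factors, was 12754926 to 17721210 counts per library in WT and 7821169 to 13940378 in PXRKO atorvastatin liver; fewer counts in PXRKO give its low levels the wider relative error. No 2 libraries were copies. Over the 1374 genes each library was the highest of its group in 14.5% to 33.7% of genes.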

How the data were processed

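Total RNA of mouse liver was sequenced from stranded, ribosome-depleted libraries, per the labels' protocols. Reads were counted per gene with HTSeq and tested with DESeq2 on GRCm38, per the submitters' processing notes; the sources used here name no aligner, annotation release, version or strand setting, so antisense partners and overlapping genes are uncertain. The deposited tables hold raw counts of 8 libraries, a mean signal (baseMean, counts divided by size factors), the authors' log2 fold change, p-value and adjusted p-value, per the file headers. All but the vehicle and PCN table (PCN, pregnenolone 16α-carbonitrile, is a mouse PXR agonist) hold only genes selected on their own result. No per-sample column was left unmapped (0); columns were tied to groups by table names and identical counts across tables, not to animals.

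Size factors were recovered from baseMean and counts, and tables were joined by symbol and coordinates (starts raised by 1) and put on 1 scale through shared groups, so levels across groups come from separately normalised tables. The number of genes tested was inferred from the authors' p-values. EdgeR 4.0.16 (quasi-likelihood F test, R 4.3.3) used those size factors, with the dispersion trend and prior (5.84 degrees of freedom, 12958 genes) from the vehicle and PCN table, adjusted over the inferred number at 0.05, and was tested on simulated data. DESeq2 1.42.0 was an alternative, and both were fitted to listed genes only. Folds are ratios of group means. The ratios of Cyp2b9 and Gm49756 are instead summed counts scaled by size factors, and their intervals cover counting error only. A list member counts as measured if listed for these groups or at a baseMean of at least 7.6 in the vehicle and PCN table. A member below that level or absent there, such as Ccnd1 or Plin4, therefore entered only by being called. This can raise the called share of a list. The background of 9.35% is over the 14690 genes tested, a set not defined by this rule, so shares and background are not strictly comparable. Of the listed symbols 1351 of 1374 matched GENCODE M21. Figures used Python 3.11.15 and matplotlib 3.10.9.

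Groups and gene lists were chosen with earlier results of these data known. Genes named are Nr1i2, the 12 largest rises and 12 largest falls called by both tests (mean of at least 50, no overlap, no predicted models), up to 5 called members per list and called genes within 10 Mb of Nr1i2; not all are printed, some are not reported here, and other list members were chosen after their values were seen. Each library is a separate animal, per the labels.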

Additional observations from a re-analysis of the deposited data

Results flagged for a closer look

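In the genes named by rule, each group of 4 libraries was examined for 1 value whose gap to the nearest other, as a share of the group's range, exceeds Dixon's 95% critical value. This gave 20 cases among 262 groups of values, where chance flags about 1 in 20 groups. Among WT atorvastatin livers 1 library stood above the rest in Aacs in library 2 (2907, the others 1295 to 1346), Per3 in library 3 (2215, the others 1790.1 to 1846) and Nampt in library 4 (2012, the others 1556 to 1619). WT libraries also stood above their group in Saa4 in library 4 (3612, the others 2157 to 2367) and Pcyt1a in library 3 (2138, the others 1738 to 1757). Among WT atorvastatin livers 1 library stood below the rest in Fasn in library 4 (5294, the others 10726 to 11327) and Tnk2 in library 3 (337, the others 403 to 415). Among PXRKO atorvastatin livers 1 library stood above the rest in Slc2a2 in library 2 (4954, the others 3771 to 3951), Tnk2 in library 2 (536, the others 489 to 492) and Hgd in library 4 (11832, the others 6669 to 7357). PXRKO libraries also stood above their group in Rabl3 in library 4 (334, the others 245 to 257), Cyp4a31 in library 1 (481, the others 442 to 446) and Ehhadh in library 4 (19159, the others 10474 to 11709.9). Single high PXRKO libraries were found too for Cyp4a12b in library 4 (1686, the others 1141 to 1177) and Spon2 in library 1 (389.5, the others 175 to 203). Among PXRKO atorvastatin livers 1 library stood below the rest in Nr1i2 in library 3 (386, the others 591 to 631), Srxn1 in library 2 (491, the others 652 to 671) and Gask1a in library 4 (75.4, the others 138 to 145). Cyp2b9 (5.45 in PXRKO library 1, 0 in the others) and Gm49756 (0.938 in WT library 4, 0 in the others) stood apart on 1 to 4 reads. PXRKO library 4 was the one in 5 of the 20 cases and WT library 4 in 4. With the Nr1i2 value of 386 left out, all PXRKO libraries of that gene remained below the WT libraries.

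Tspan4 differed between treatments in its genotype difference, with an interaction of -1.32 on the log2 scale in edgeR; its levels are given above. It is not among the authors' vehicle calls at 0.05.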

How the results depend on the processing

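Counts of calls by edgeR were the results most open to choices. For PXRKO against WT with atorvastatin, 951 calls became 564 with the dispersion trend and prior taken from the listed genes alone, and 590 to 864 when 1 library was left out. Without WT library 1 or 3 and without PXRKO library 3 or 4 they were 603, 590, 624 and 624. TMM (901) and total counts (868), both from the listed genes alone, a minimum mean level of 50 (830) and DESeq2 (1211) kept the count within 1.5 times. However, TMM and total counts raised the share of calls higher in PXRKO from 46.9% to 66.0% and 69.2%. For vehicle, 102 calls became 185 with total counts, 30 with the trend from the listed genes, 231 with DESeq2 and 40 to 146 without 1 library. The interaction gave 3 calls with total counts, 0 with the trend from the listed genes (edgeR, 81 genes at an unadjusted p under 0.05 in the reported fit), 8 with DESeq2 and 1 to 3 without 1 library. The authors' second table of this comparison, whose name gives 0.1, holds 1333 of their 1374 genes and none beyond them. Of 131 genes named by rule none changed direction under any alternative, and 23 lost the edgeR call with the trend from the listed genes. Of 150 list or rule genes called by edgeR, 108 kept the call without any 1 library. Calls in each list without single libraries were an alternative added after the data were seen. Lower depth in PXRKO limits what could be called among genes of low level. No paired analysis was possible because the labels give the groups no shared replicate numbers and the columns of these libraries carry only their group.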

Other observations

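The genes below were chosen after their values were seen and carry no claim beyond them. Some genes that were nearly silent in WT liver were present in PXRKO liver. Serpinb1c, a serpin gene, had 0, 1.66, 3.50 and 2.81 in WT and 136, 139, 79.8 and 18.6 in PXRKO atorvastatin livers (edgeR adjusted p 0.0012). In vehicle livers it had 2.12, 3.36, 1.79 and 11.6 in WT and 131, 70.1, 122 and 79.3 in PXRKO. Kcnk1, a potassium channel gene, had 0.675, 0.832, 3.50 and 0.938 in WT and 34.0, 35.2, 17.2 and 5.80 in PXRKO with atorvastatin (edgeR adjusted p 0.00592). In vehicle livers it had 4.24, 1.92, 1.79 and 3.63 in WT and 20.7, 54.1, 24.1 and 40.3 in PXRKO, so in both genes and both conditions every PXRKO library was above every WT library. The noncoding RNA 3930402G23Rik had 2.03, 0.832, 0 and 0 in WT and 28.6, 18.4, 32.6 and 114 in PXRKO with atorvastatin, while WT vehicle libraries reached 9.53, 8.64, 19.7 and 10.2.

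Some single genes were higher in PXRKO liver in both conditions. Copa, a coatomer gene, stood at 2985, 2897, 2681 and 3062 in WT and 3635, 3473, 3375 and 3727 in PXRKO with atorvastatin (log2 0.29), and the coatomer genes Copb1 (0.29) and Copb2 (0.37) with the small GTPase gene Arf4 (0.53) were higher too; the authors called all 4 with vehicle as well (log2 0.24, 0.24, 0.36 and 0.46). Single enzyme genes that were higher with atorvastatin were Aass, of lysine breakdown (2.09-fold), Agxt, of glyoxylate (2.06-fold), Bhmt, of betaine and homocysteine (2.07-fold), Got1, of aspartate (1.99-fold), and Ddc (2.08-fold). Txnip, a glucose-responsive gene, was 2.25-fold lower, and Serpina6, the corticosteroid-binding globulin, 3.09-fold lower. EdgeR called each of these 7 at an adjusted p of at most 0.0429.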
